A study of Rattus norvegicus with 172 samples.

Results

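The interaction between compound and mid dose was examined in the livers of 32 of the 70 male Fischer 344 rats of a 90-day exposure study of furan and 3-methylfuran. All rats of 4 groups were taken, and the quantity tested for each gene was the effect of furan over its own controls minus the effect of 3-methylfuran over its own controls. The groups were 8 rats given furan at 0.12 mg/kg body weight per day, 8 control rats of the furan experiment, 8 rats given 3-methylfuran at 0.075 mg/kg body weight per day and 8 control rats of the 3-methylfuran experiment. Exposure lasted 90 days, all samples were bulk liver, and ages were not given in the labels. Controls carry the same diet label in both experiments, and they were assigned to an experiment by the rat number in the sample title. The mid doses are not matched, since the furan dose was 1.6 times the 3-methylfuran dose by weight, so the difference is one between these doses and not between equal doses. Furan libraries came from the Illumina Stranded mRNA prep kit and 3-methylfuran libraries from the TruSeq Stranded mRNA protocol. Compound, dose, kit and experiment changed together and cannot be told apart, although a constant shift between kits drops out of each effect over its own controls.

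Furan is a volatile ring compound formed when food is heated, and 3-methylfuran carries a methyl group on that ring. In rat liver, furan is opened by cytochrome P450 2E1 to a reactive dialdehyde that binds thiols and amines. Liver genes also follow the glucocorticoid receptor, a transcription factor that binds DNA when it holds corticosteroid hormone, and the circadian clock, a loop in which CLOCK and ARNTL bind E-boxes and are held back by PER and CRY proteins.

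Totals ran from 11.1 to 50 M counts per rat, and the 3-methylfuran 0.075 group was the deepest, with a median of 24.2 M against 14.2 M in its controls. The 8 hepatocyte markers were present in every library and summed to 181000 to 193000 CPM in furan 0.12 livers, 181000 to 192000 in furan controls, 203000 to 224000 in 3-methylfuran 0.075 livers and 207000 to 225000 in 3-methylfuran controls. A CPM value is a count scaled by the library's total count, and by its TMM factor for single genes. In bulk liver, fewer cells of a type and less RNA per cell cannot be told apart. Rats are separately labelled animals, and sequencing runs of a rat were summed.

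Of 11352 genes expressed in both experiments, 281 (2.48%) differed between the mid-dose effects at an adjusted p under 0.05 in edgeR's quasi-likelihood test, 180 higher (1.59%) and 101 lower (0.89%) with furan. At an unadjusted p under 0.05 there were 1549 genes, or 13.6%. Among the 281 called genes the median difference was 0.53 on the log2 scale, against -0.0055 over all genes tested, and 181 differed by at least 1.5-fold. Tested against its own controls, furan 0.12 had 321 called genes (2.83%), 190 higher (1.67%) and 131 lower (1.15%). Against its own controls, 3-methylfuran 0.075 had 93 called genes (0.819%), 35 higher (0.308%) and 58 lower (0.511%). Both counts moved with single rats. The furan count was 208, 213 and 504 without furan 0.12 rats MB044, MB041 and MB052. The 3-methylfuran count was 48, 52 and 55 without 3-methylfuran 0.075 rats MB549, MB541 and MB551, and 40, 50 and 54 without 3-methylfuran controls MC507, MC503 and MC508, while DESeq2 with all rats called 196.

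The called differences were mostly made of effects that pointed in opposite directions. In 276 of the 281 genes the furan effect and the 3-methylfuran effect had opposite signs, a property that the definition of the contrast favours. Both effects passed the test in 19 genes, and all 19 had opposite signs, 17 of them higher with furan. The contrast favours this too, since effects of the same sign partly cancel in it. The furan effect alone passed in 132 of the 281 genes and the 3-methylfuran effect alone in 23. In the other 107 neither effect passed on its own. The furan effect was the larger in size in 182 genes, and the median effect over the called genes was 0.27 for furan and -0.17 for 3-methylfuran on the log2 scale.

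**Figure D1:**
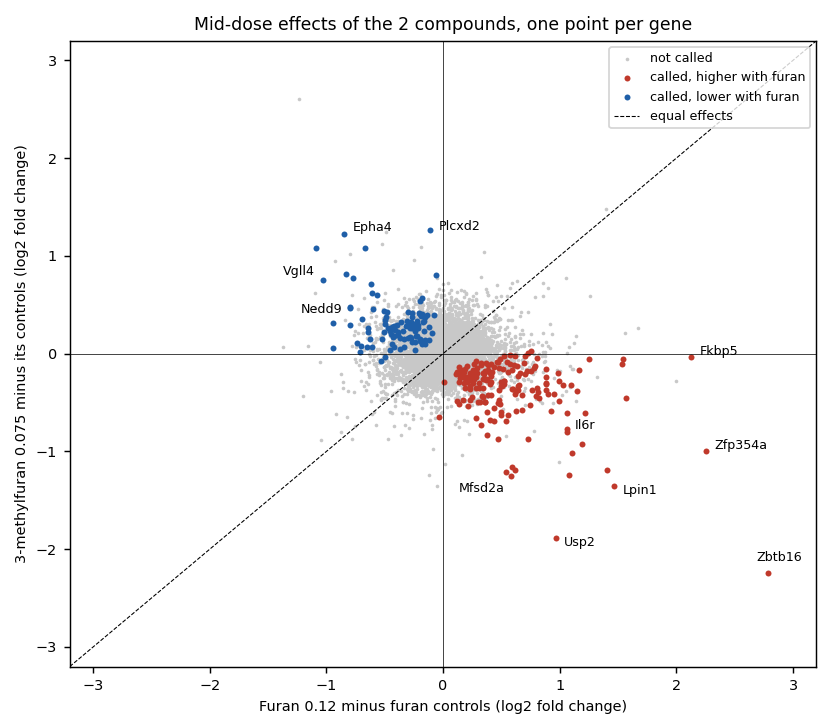
Log2 fold change of each of 11352 genes with furan 0.12 over furan controls (horizontal axis) and with 3-methylfuran 0.075 over its controls (vertical axis); each point is a gene and the dashed line marks equal effects. The 180 genes called higher with furan lie below the line and the 101 called lower lie above it, with Zbtb16 and Zfp354a farthest out.

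Zbtb16, a zinc finger repressor that is a classical glucocorticoid receptor target, had the largest called difference among genes with a symbol. The lowest, median and highest levels were 7.25, 54.6 and 63.3 CPM in furan 0.12 livers, against 3.93, 5.29 and 11.1 CPM in furan controls. With 3-methylfuran 0.075 they were 1.94, 3.75 and 11.2 CPM, against 2.98, 20.8 and 42 CPM in 3-methylfuran controls. Both pairs of groups overlapped: 6 of the furan 0.12 rats stood above every furan control and 5 of the 3-methylfuran controls stood above every 3-methylfuran 0.075 rat. The effect was 2.79 with furan and -2.24 with 3-methylfuran on the log2 scale, and the difference was 5.02 ± 0.73 (SE; edgeR adjusted p = 0.000103). The 2 control groups themselves lay apart, at a mean of 6 ± 2.41 CPM in furan controls and 20.1 ± 15.3 CPM in 3-methylfuran controls (SD, n = 8 each).

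Fkbp5, the co-chaperone that the glucocorticoid receptor induces and that dampens it in return, moved in the furan experiment alone by the test of each effect. Its lowest, median and highest levels were 13.2, 48 and 110 CPM in furan 0.12 livers, against 10.3, 11.8 and 14 CPM in furan controls. With 3-methylfuran 0.075 they were 15.8, 17.7 and 21.6 CPM, against 11.5, 18.1 and 26 CPM in its controls. Only the lowest furan 0.12 rat lay within the furan control range, while all 3-methylfuran 0.075 rats lay inside the range of their controls. The difference was 2.17 ± 0.40 (edgeR adjusted p = 0.00144), made of a furan effect of 2.13 and a 3-methylfuran effect of -0.04. In the furan experiment the spread of Fkbp5 was in the dosed rats: the SD of log2 CPM was 1.05 in furan 0.12 livers and 0.17 in furan controls. In the 3-methylfuran experiment the controls were the more spread, at 0.42 against 0.15 in 3-methylfuran 0.075 livers.

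Over the glucocorticoid response list, 6 of 22 genes tested were called, all higher with furan, where 1.59% of all genes tested were called higher. The median difference of the list was 0.49 against -0.0055 over all genes. This list and the other gene lists were chosen with earlier results of these data known, so their shares are given as a description. Beside Zbtb16 and Fkbp5 the called genes of the list were Lpin1, Per1, Arrdc2 and Tdo2. Tdo2, the liver enzyme that opens the tryptophan ring, averaged 1260 CPM in furan 0.12 livers, 821 CPM in furan controls, 810 CPM in 3-methylfuran 0.075 livers and 824 CPM in 3-methylfuran controls (difference 0.64 ± 0.16, edgeR adjusted p = 0.0212). Arrdc2, an arrestin-domain gene, had a difference of 1.34 ± 0.24 (edgeR adjusted p = 0.000982) that came mainly from the 3-methylfuran side. Its effect was 0.47 with furan and -0.87 with 3-methylfuran. Arrdc2 means were 4.79 CPM in furan controls and 9.95 CPM in 3-methylfuran controls, further apart than in the dosed groups. Those were 6.62 CPM with furan 0.12 and 5.52 CPM with 3-methylfuran 0.075. The receptor targets were not uniform. Sgk1, a kinase, had a difference of -0.43 ± 0.59, Dusp1, a phosphatase, -1.19 ± 0.59 and Tsc22d3, the leucine zipper gene also called GILZ, 0.89 ± 0.36, and none of these 3 passed the test (edgeR adjusted p = 0.844, 0.377 and 0.238). Pck1, which makes phosphoenolpyruvate for new glucose, had 0.33 ± 0.24 (edgeR adjusted p = 0.591).

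Lpin1, a phosphatidate phosphatase of lipid synthesis, was among 4 called genes in which neither dosed group overlapped its controls. Its level ran from 308 to 569 CPM in furan 0.12 livers (median 360), against 60.4 to 258 CPM in furan controls (median 105). It ran from 38.8 to 62.2 CPM in 3-methylfuran 0.075 livers (median 51.8), against 83.9 to 202 CPM in 3-methylfuran controls (median 123). The difference was 2.82 ± 0.36 (edgeR adjusted p = 1.9e-05), from effects of 1.47 and -1.35. The furan controls fell into a lower set of 5 rats and 3 rats at 230, 231 and 258 CPM, which gave Lpin1 a control SD 3.06 times that of the dosed groups. Even the 3 highest of these controls lay below every furan 0.12 rat.

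Il6r, the receptor chain for interleukin 6, had the smallest p of all genes with a symbol. It ran from 151 to 273 CPM in furan 0.12 livers, against 68.1 to 128 CPM in furan controls. It ran from 51.2 to 70.2 CPM in 3-methylfuran 0.075 livers, against 71.4 to 131 CPM in its controls. Neither pair overlapped, and the means were 99.3 CPM in furan controls and 102 CPM in 3-methylfuran controls. The difference was 1.83 ± 0.19 (edgeR adjusted p = 3.35e-07). Nr1i2, which encodes the pregnane X receptor that senses foreign compounds, also showed no overlap on either side. It ran from 150 to 246 CPM in furan 0.12 livers, against 107 to 146 CPM in furan controls. It ran from 121 to 151 CPM in 3-methylfuran 0.075 livers, against 156 to 218 CPM in 3-methylfuran controls. The difference was 0.95 ± 0.12 (edgeR adjusted p = 4.7e-06).

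The promoters of these 3 genes are shown because Il6r, Nr1i2 and Lpin1 are the called genes with a symbol in which each dosed group was separate from its own controls, above them with furan and below them with 3-methylfuran. Each sequence is from RefSeq on build GRCr8 and covers 250 bases before to 50 bases after the annotated start, read on the strand of the gene. Il6r lies on chromosome 2 (chr2:177645160-177645459, minus strand), Nr1i2 on chromosome 11 (chr11:75965467-75965766, plus strand) and Lpin1 on chromosome 6 (chr6:45108893-45109192, minus strand). Capitals mark every match, on either strand, to the E-box CACGTG and to the glucocorticoid receptor half-site AGAACA, whose reverse complement is TGTTCT.
Il6r: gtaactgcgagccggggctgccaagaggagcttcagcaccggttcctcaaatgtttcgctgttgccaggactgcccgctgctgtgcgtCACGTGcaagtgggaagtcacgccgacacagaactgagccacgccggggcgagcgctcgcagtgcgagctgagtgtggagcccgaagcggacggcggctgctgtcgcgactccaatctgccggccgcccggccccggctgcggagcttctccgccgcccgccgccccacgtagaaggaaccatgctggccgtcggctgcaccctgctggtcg
Nr1i2: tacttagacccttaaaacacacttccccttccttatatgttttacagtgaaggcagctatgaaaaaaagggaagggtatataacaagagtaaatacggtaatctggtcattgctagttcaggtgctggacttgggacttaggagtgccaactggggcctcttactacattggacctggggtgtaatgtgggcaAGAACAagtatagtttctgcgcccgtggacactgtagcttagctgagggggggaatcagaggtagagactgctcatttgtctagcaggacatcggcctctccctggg
Lpin1: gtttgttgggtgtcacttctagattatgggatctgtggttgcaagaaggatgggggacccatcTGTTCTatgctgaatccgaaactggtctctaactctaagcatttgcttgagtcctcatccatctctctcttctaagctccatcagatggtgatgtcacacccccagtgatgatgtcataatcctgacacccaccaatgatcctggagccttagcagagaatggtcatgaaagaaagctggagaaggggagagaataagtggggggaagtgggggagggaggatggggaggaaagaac
Il6r held 1 E-box, starting at position -162 from the start, and no half-site. Nr1i2 held 1 half-site at position -57 and Lpin1 held 1 at position -187, and neither held an E-box. Of the 281 called genes, 216 had an entry in the promoter table. An E-box was present in 8.33% of these 216 promoters and in 6.42% of all 33469 promoters of the same length, and a half-site in 10.6% and 20.7%. The larger set was not limited to genes tested here, so the 2 sets are unlike. These matches are descriptions of the letters in these windows.

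**Figure D2:**
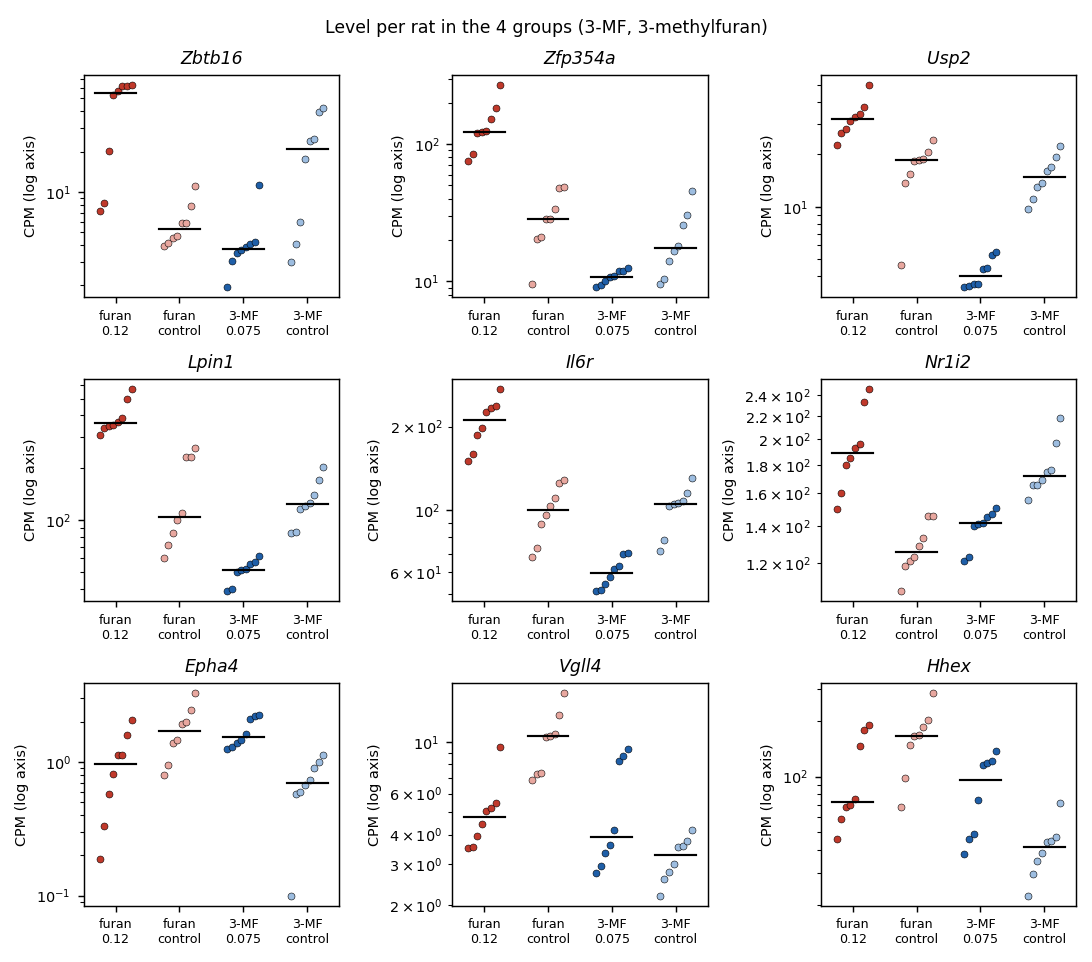
Level of 9 genes in each rat, in CPM on a log axis, with furan 0.12, furan control, 3-methylfuran (3-MF) 0.075 and 3-MF control from left to right; points are rats, black lines are medians, and the 1 Epha4 value of 0 is drawn at 0.1 CPM. Lpin1, Il6r and Nr1i2 show no overlap on either side, while Zbtb16 and Hhex spread widely within groups.

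Zfp354a, a zinc finger gene, had the next largest called difference after Zbtb16. It ran from 75.3 to 271 CPM in furan 0.12 livers (median 123), against 9.52 to 49.1 CPM in furan controls (median 28.6). It ran from 9.09 to 12.6 CPM in 3-methylfuran 0.075 livers (median 10.8), against 9.53 to 45.5 CPM in 3-methylfuran controls (median 17.4). The furan groups did not overlap and the 3-methylfuran groups did. The difference was 3.25 ± 0.44 (edgeR adjusted p = 3.42e-05), of which 2.25 was the furan effect. Both control groups varied more than the dosed groups for this gene, with log2 SDs 1.75 and 1.77 times that of the dosed groups for furan and 3-methylfuran controls, and the 3-methylfuran effect did not pass the test (edgeR adjusted p = 0.137).

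Among circadian clock genes, 3 of 18 tested were called for the difference, against 2.48% of all genes tested. Usp2, a deubiquitinase whose transcript cycles with the clock, ran from 22.7 to 50.3 CPM in furan 0.12 livers (median 31.9), against 4.64 to 24.2 CPM in furan controls (median 18.5). It ran from 3.45 to 5.48 CPM in 3-methylfuran 0.075 livers (median 3.98), against 9.7 to 22.3 CPM in 3-methylfuran controls (median 14.9). The 3-methylfuran groups were separate and the furan groups overlapped, with a difference of 2.85 ± 0.30 (edgeR adjusted p = 7.16e-07). Per1, a core repressor that also answers to glucocorticoids, differed by 1.75 ± 0.40 (edgeR adjusted p = 0.0128) although neither effect passed alone. Nfil3, a repressor at D-box elements, was lower with furan, at -0.64 ± 0.17 (edgeR adjusted p = 0.0343).

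Other clock genes moved the same way with both compounds. The labels give neither the hour nor the order in which rats were sampled, and the part of sampling time in the values of clock and glucocorticoid response genes was not tested. Nr1d1, which encodes the repressor REV-ERB alpha, averaged 9.55 CPM in furan 0.12 livers against 3.58 CPM in furan controls, and 20.9 CPM in 3-methylfuran 0.075 livers against 7.61 CPM in 3-methylfuran controls. It rose by 1.40 and 1.48 on the log2 scale with furan and 3-methylfuran (edgeR adjusted p = 0.0159 and 0.0137), and the difference of -0.08 ± 0.46 did not pass (edgeR adjusted p = 0.972). Its paralog Nr1d2 rose by 0.59 and 0.72 (edgeR adjusted p = 0.0344 and 0.0205). Cry1, a core repressor, averaged 9.97 CPM in furan 0.12 livers against 13.9 CPM in furan controls, and 9.01 CPM in 3-methylfuran 0.075 livers against 16.6 CPM in 3-methylfuran controls. Cry1 fell with both compounds, with effects of -0.47 and -0.87 (edgeR adjusted p = 0.0278 and 0.000117). Clock itself averaged 65.3 CPM in both furan groups and 50.9 against 48.9 CPM in the 3-methylfuran groups (difference -0.06 ± 0.11, edgeR adjusted p = 0.896).

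Genes of hepatic glucose handling contributed 4 called differences among 15 tested, 3 higher and 1 lower with furan, against 2.48% of all genes tested, while the list's median was 0.01. Foxo1, the insulin-restrained transcription factor, ran from 32.9 to 64.8 CPM in furan 0.12 livers, against 21.8 to 30.3 CPM in furan controls. It ran from 14.7 to 18.5 CPM in 3-methylfuran 0.075 livers, against 18 to 26.3 CPM in its controls. The furan groups were separate, and the difference was 1.16 ± 0.14 (edgeR adjusted p = 2.21e-06). Pfkfb1, a regulator of glycolysis in liver, differed by 1.48 ± 0.22 (edgeR adjusted p = 0.000107). Its means were 49.9 CPM in furan controls and 112 CPM in 3-methylfuran controls, further apart than in the dosed groups. Those were 99.4 CPM with furan 0.12 and 79.9 CPM with 3-methylfuran 0.075. Irs2, an insulin receptor substrate, was lower with furan, at -1.27 ± 0.35 (edgeR adjusted p = 0.0484). Its control means also lay further apart than its dosed means, at 27.1 CPM for furan and 9.46 CPM for 3-methylfuran. The dosed means were 15.7 CPM with furan 0.12 and 13.4 CPM with 3-methylfuran 0.075.

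Further called genes belonged to several roles, where 2.48% of all genes tested were called. Nr0b2, the small heterodimer partner that represses bile acid synthesis, differed by 2.12 ± 0.48 (edgeR adjusted p = 0.0103). It was the called member higher with furan among 19 bile acid genes. Amacr, a racemase of bile acid side chain oxidation, was the called member lower with furan, at -0.57 ± 0.16 (edgeR adjusted p = 0.0358). Edem1, which sends misfolded glycoproteins for degradation, averaged 613 CPM in furan 0.12 livers against 277 CPM in furan controls, and 212 CPM in 3-methylfuran 0.075 livers against 277 CPM in its controls. Its difference was 1.53 ± 0.23 (edgeR adjusted p = 0.000107), and it was the 1 called gene of 14 in the unfolded protein response list. Of 19 p53 targets, Cdkn1a, a cyclin kinase inhibitor, and Tp53inp1 were called, with differences of 1.3 ± 0.30 and 0.75 ± 0.19 (edgeR adjusted p = 0.0152 and 0.0211). Klf13 (2.32 ± 0.29), Ablim3 (2.11 ± 0.38), Ankrd33b (1.86 ± 0.26) and the lysolipid carrier gene Mfsd2a (1.84 ± 0.37) completed the 10 largest positive differences. Srsf4, a splicing factor, and Sdc4, a heparan sulfate proteoglycan, were smaller, at 0.95 ± 0.13 and 1.21 ± 0.17, but both effects of each passed with opposite signs.

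The median difference of the 101 genes lower with furan was -0.60 on the log2 scale, against 0.78 for the 180 higher. Epha4, an ephrin receptor, had the largest negative difference among called genes with a symbol, at levels of 0.188 to 2.07 CPM in furan 0.12 livers against 0.801 to 3.28 CPM in furan controls. It had 1.24 to 2.23 CPM in 3-methylfuran 0.075 livers against 0 to 1.12 CPM in 3-methylfuran controls. The 3-methylfuran groups were separate, and the difference of -2.07 ± 0.48 (edgeR adjusted p = 0.0115) rests on few counts per rat. Vgll4, a cofactor that competes with YAP for TEAD proteins, ran from 3.51 to 9.51 CPM in furan 0.12 livers against 6.86 to 16.2 CPM in furan controls. It ran from 2.75 to 9.33 CPM in 3-methylfuran 0.075 livers, where 3 rats stood at 8.29 CPM or above, against 2.19 to 4.18 CPM in 3-methylfuran controls. Its difference was -1.78 ± 0.37 (edgeR adjusted p = 0.00427).

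Hhex, a homeobox gene of liver development, ran from 45.6 to 190 CPM in furan 0.12 livers against 68.1 to 285 CPM in furan controls. It ran from 38 to 138 CPM in 3-methylfuran 0.075 livers against 22.5 to 71.5 CPM in 3-methylfuran controls. All groups overlapped and the control medians were 167 CPM for furan and 41.2 CPM for 3-methylfuran, with a difference of -1.75 ± 0.47 (edgeR adjusted p = 0.0376). Plcxd2, a phospholipase-like gene, was a case on the 3-methylfuran side. It ran from 1.2 to 2.56 CPM in furan 0.12 livers against 0.821 to 2.78 CPM in furan controls, and from 3.19 to 5.74 CPM in 3-methylfuran 0.075 livers against 0.971 to 2.99 CPM in 3-methylfuran controls. The furan groups overlapped and the 3-methylfuran groups did not (difference -1.38 ± 0.28, edgeR adjusted p = 0.00287).

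Magi3, a membrane scaffold gene, had the same form, at a mean of 17.1 CPM in furan 0.12 livers against 17.7 CPM in furan controls, and of 19.2 CPM in 3-methylfuran 0.075 livers against 11 CPM in 3-methylfuran controls. The difference was -0.86 ± 0.14 (edgeR adjusted p = 0.000297). Nedd9, a scaffold of focal adhesions, had the smallest p among genes with a symbol lower with furan. It averaged 13.2 CPM in furan 0.12 livers against 22.7 CPM in furan controls, and 17.7 CPM in 3-methylfuran 0.075 livers against 12.9 CPM in 3-methylfuran controls. Its effects were -0.80 with furan and 0.46 with 3-methylfuran, of which the furan effect passed (edgeR adjusted p = 0.000442 and 0.107; difference -1.26 ± 0.19, edgeR adjusted p = 0.000111). Zfp608, Cd274, which encodes the immune checkpoint ligand PD-L1, Rad54l2 and the phosphate carrier gene Slc34a2 had differences of -1.65 ± 0.30, -1.54 ± 0.36, -1.33 ± 0.35 and -1.25 ± 0.33. Neither effect passed alone for Cd274 (edgeR adjusted p = 0.0947 and 0.164) or Rad54l2 (edgeR adjusted p = 0.207 and 0.175). For Cd274, 3-methylfuran 0.075 rats MB541, MB542 and MB548 stood at 11.2 to 14.3 CPM. The others ran from 3.73 to 6.09 CPM, against 3.58 to 5.4 CPM in 3-methylfuran controls. The same rats were the highest of that group for Vgll4. After Nedd9 and Magi3, Dennd4a, the lamin gene Lmnb1 and the liver homeobox gene Onecut2 had the next smallest p, with differences of -0.60 ± 0.10, -0.90 ± 0.16 and -0.69 ± 0.12.

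Genes that activate or detoxify reactive compounds did not pass the test of the difference. Cyp2e1, which activates furan, averaged 3199 ± 764 CPM in furan 0.12 livers and 2899 ± 557 CPM in furan controls, and 2259 ± 486 CPM in 3-methylfuran 0.075 livers and 2198 ± 375 CPM in 3-methylfuran controls (SD, n = 8 each). The difference was 0.10 with a 95% interval of -0.31 to 0.51 (edgeR adjusted p = 0.908). None of 21 xenobiotic P450 genes, 21 genes of the NRF2 and electrophile response, 25 cell cycle genes or 23 PPAR alpha targets was called, with median differences of -0.03, -0.05, -0.10 and 0.02. The same held for 24 cholesterol synthesis, 15 fatty acid synthesis, 21 sex-biased, 14 ATF4, 11 heat shock, 16 acute phase, 25 interferon and 12 immediate early genes with medians between -0.26 and 0.26. Of 21 extracellular matrix genes, Adamtsl2 was called, at 1.02 ± 0.25 (edgeR adjusted p = 0.0173). Over all genes tested 2.48% were called, so no call or 1 call in a list of this size says little about it. Over the 12 lists grouped here because edgeR called none of their 220 genes tested, DESeq2 called 2 and limma voom 0. In these lists 15 genes had an unadjusted p under 0.05 (edgeR), where 13.6% of all genes tested did. The median half-width of the 95% interval over all genes was 0.28, so smaller differences were mostly not detectable with 8 rats a group. The adjusted test is stricter than this interval, so differences somewhat above 0.28 could be missed too.

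Markers of other liver cells gave 2 called genes, where 2.48% of all genes tested were called. 1 of them was on the cholangiocyte list, whose markers together summed to 28.7 to 48.2 CPM in furan 0.12 livers and 35.3 to 43.7 CPM in furan controls. Cidec, a lipid droplet gene on the adipocyte list that hepatocytes also express, differed by 0.54 ± 0.11 (edgeR adjusted p = 0.00396). Over the other 9 marker lists edgeR called 0 of 57 genes tested, DESeq2 called 1 and limma voom 0. In these lists 5 genes had an unadjusted p under 0.05 (edgeR), where 13.6% of all genes tested did. The part of cell composition in the called differences was not tested.

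The spread of the control groups was measured as the SD of log2 CPM over the 8 rats, and a control group was called wide when this was at least 1.5 times the root mean square of the SDs of the 2 dosed groups. Furan controls were wide for 29 of the 281 called genes (10.3%) and for 14% of all genes tested. The 3-methylfuran controls were wide for 20 called genes (7.12%) and for 17% of all genes. At least 1 control group was wide for 41 called genes (14.6%), against 26% of all genes, and both were wide for 8. A wide control group raises the error of a difference, so called genes had to pass in spite of it. Called genes named here with wide furan controls were Lpin1, Usp2, Zfp354a, Plcxd2, Srsf4 and Sdc4, and those with wide 3-methylfuran controls were Lpin1, Zfp354a, Plcxd2 and Epha4. The ratio uses both dosed groups, so spread in either dosed group lowers it for both control groups. Zbtb16 had a ratio of 1.39 for 3-methylfuran controls and was not counted as wide. Its log2 SD was 1.48 in 3-methylfuran controls, 0.69 in 3-methylfuran 0.075 livers and 1.34 in furan 0.12 livers. For Usp2, 1 furan control at 4.64 CPM stood below the other 7 at 13.7 to 24.2 CPM.

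**Figure D3:**
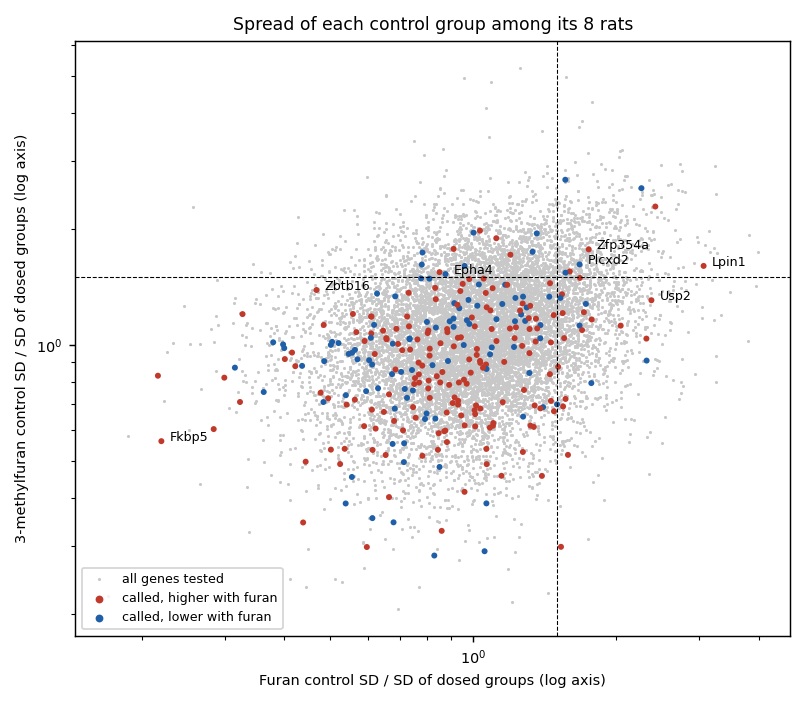
Ratio of the SD of log2 CPM in furan controls (horizontal log axis) and in 3-methylfuran controls (vertical log axis) to that of the dosed groups; each point is a gene and dashed lines mark the ratio of 1.5. Lpin1 and Usp2 lie far to the right, Fkbp5 lies at the far left, and most of the 281 called genes lie inside both lines.

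Control rats of the furan experiment also differed in markers of sinusoidal endothelium, the cells that line the liver's capillaries. The 10 markers summed to 191 to 335 CPM in furan 0.12 livers and 83 to 409 CPM in furan controls, where 1 rat, MC004, stood at 83 CPM and the next at 227 CPM. They summed to 115 to 187 CPM in 3-methylfuran 0.075 livers and 98 to 185 CPM in 3-methylfuran controls. At least 1 control group was wide for 9 of the 10 markers tested, against 26% of all genes tested. The markers were measured in the same rats, MC004 among them, so they are not separate observations. Kdr, the VEGF receptor, ran from 32.4 to 57.6 CPM in furan 0.12 livers and 11.6 to 89.3 CPM in furan controls, and its difference of -0.70 ± 0.33 did not pass (edgeR adjusted p = 0.338). Without furan control MC004 it was -0.86 (edgeR adjusted p = 0.0211), and the number of genes called for the difference was 319, 194 higher and 125 lower.

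Single rats of dosed and control groups both moved calls. With each of the 32 rats left out in turn, 194 of the 281 genes were called every time. Leaving out any 1 control kept 200 genes, so 81 lost their call without some control rat, and 85 lost it without some dosed rat. The total ran from 213 genes, without furan 0.12 rat MB044, to 379 genes, without furan 0.12 rat MB045. Named genes whose call was lost without at least 1 rat were Irs2 (lost without each of 23 rats in turn), Hhex and Slc34a2 (16 each), Amacr (15), Nfil3 (13) and Rad54l2 (9). The highest adjusted p for the difference among these fits was 0.0947, for Irs2 without 3-methylfuran 0.075 rat MB541 (edgeR).

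**Figure D4:**
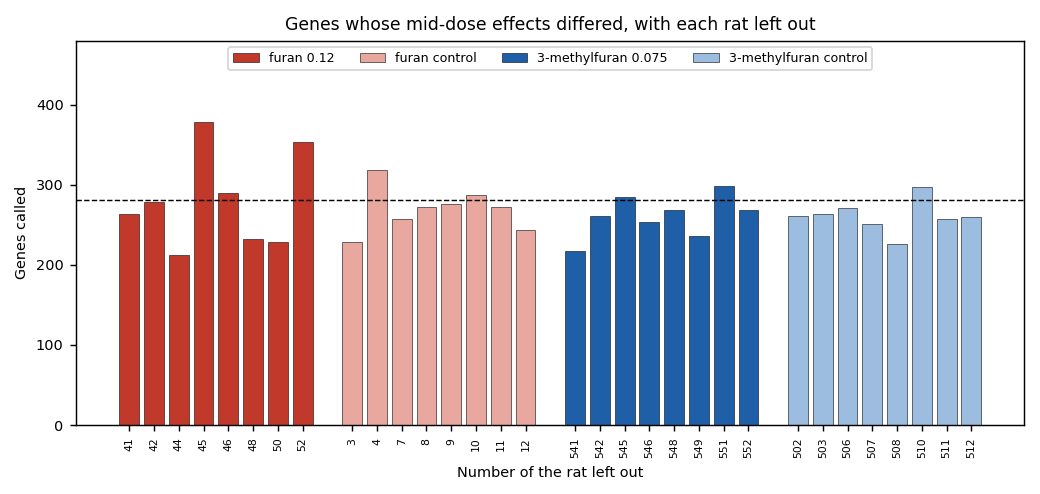
Number of genes called for the difference (vertical axis) with each of the 32 rats left out, by rat number (horizontal axis) and group; the dashed line is the 281 genes called with all rats. Bars run from 213 to 379, and both ends belong to furan 0.12 rats.

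Overlap between rats was also counted. The furan groups did not overlap in 24 of the 281 called genes (8.54%), against 0.238% of all genes tested. The 3-methylfuran groups did not overlap in 19 (6.76%), against 0.291%. The call used these same rats and favours separate groups, so these shares describe the called genes and are not separate support. Neither pair overlapped in 4 genes, namely Il6r, Nr1i2, Lpin1 and the unnamed gene AABR07040840.1. Both pairs overlapped in 242 called genes, 86.1% of the set.

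A contrast that uses no control rat was formed from the step between low and mid dose: furan 0.12 minus furan 0.03, less 3-methylfuran 0.075 minus 3-methylfuran 0.02, with 8 rats in each low-dose group. It shares the mid-dose rats with the main difference. It is another quantity than that difference, since an effect already present at the low dose drops out of it. It called 1 gene (0.00881%), Nr1i2, with a difference of 0.70 and a 95% interval of 0.43 to 0.97, and 698 genes (6.15%) had an unadjusted p under 0.05. Nr1i2 had medians of 126, 144 and 189 CPM in furan controls, furan 0.03 and furan 0.12 livers, and of 172, 176 and 142 CPM in 3-methylfuran controls, 3-methylfuran 0.02 and 3-methylfuran 0.075 livers. The number of genes it called was 11 with all 70 rats in the fit and 0 without a filter on low counts (edgeR), and 24 with DESeq2. The 281 genes were called on the same mid-dose rats, so their control-free values are given as a description and are not independent of that call.

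Control-free values of the named genes varied, and they hold the step from low to mid dose, not the whole effect over controls. The low-dose difference was 2.29 for Lpin1 and -0.76 for Lmnb1 (edgeR adjusted p = 0.00547 and 0.0344). For Nr0b2, Epha4 and Slc34a2 the low-dose difference did not pass (edgeR adjusted p = 0.155, 0.118 and 0.321). Onecut2 (-0.69 with controls, -0.54 without), Dennd4a (-0.60 and -0.41), Magi3 (-0.86 and -0.58), Zfp608 (-1.65 and -1.30), Cd274 (-1.54 and -1.28) and Vgll4 (-1.78 and -1.32) had control-free values near those with controls, but none of the 6 passed without controls (edgeR adjusted p between 0.105 and 0.34). Lpin1 (2.82 and 0.53), Nr0b2 (2.12 and 0.50), Epha4 (-2.07 and -0.36), Lmnb1 (-0.90 and -0.15) and Slc34a2 (-1.25 and -0.40) had control-free intervals that included 0. So did Zbtb16, Mfsd2a, Per1, Irs2, Srsf4, Cdkn1a, Nfil3, Adamtsl2 and Tp53inp1, the last with the opposite sign, at 0.75 with controls and -0.29 without. For Zbtb16 the control-free difference was 1.65 with an interval of -0.03 to 3.32, and for Usp2 it was 1.41 with an interval of 0.78 to 2.04.

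**Figure D5:**
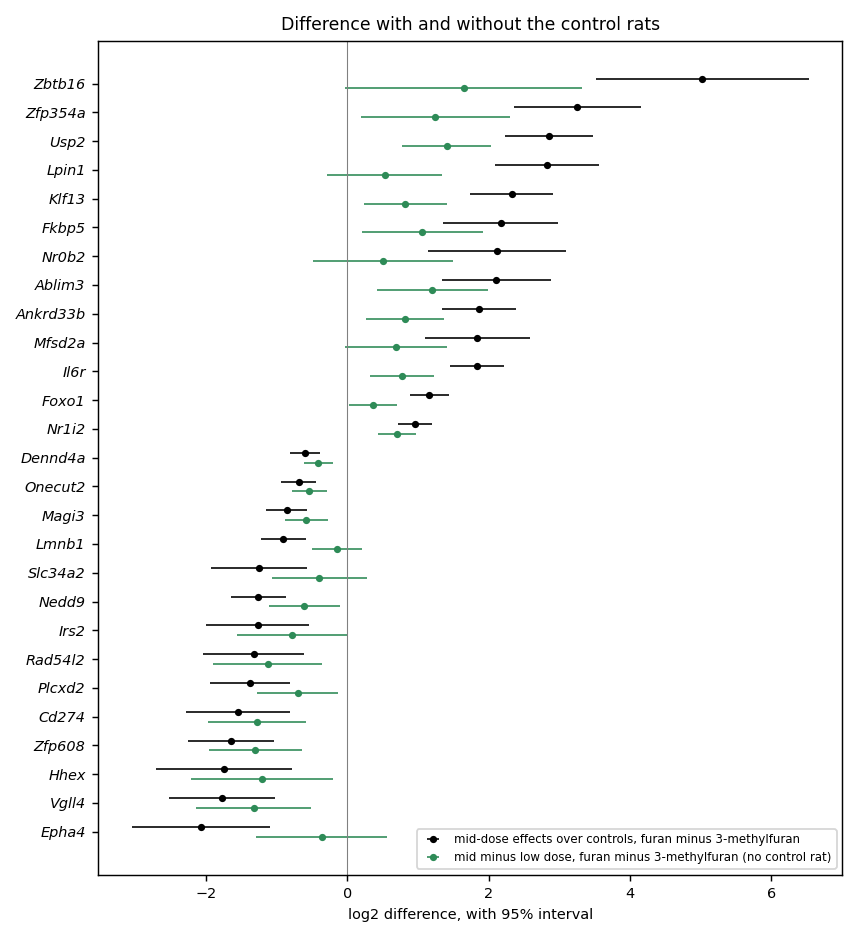
Log2 difference of named genes with 95% intervals (horizontal axis), for the mid-dose effects over controls (black) and for the step from low to mid dose without any control rat (green). Every control-free estimate shown lies closer to 0, and those of Zbtb16, Lpin1, Nr0b2, Mfsd2a, Epha4, Lmnb1 and Slc34a2 have intervals across 0. The control-free quantity leaves out any effect already present at the low dose.

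The low-dose effects, which share the same controls, were smaller in number. Their difference called 48 genes (0.423%), the furan 0.03 effect 45 (0.396%) and the 3-methylfuran 0.02 effect 3 (0.0264%). Lpin1 medians were 105, 378 and 360 CPM in furan controls, furan 0.03 and furan 0.12 livers, and 123, 64.9 and 51.8 CPM in 3-methylfuran controls, 3-methylfuran 0.02 and 3-methylfuran 0.075 livers, so the low dose already stood near the mid dose. Zfp354a medians were 28.6, 102 and 123 CPM over the furan series and 17.4, 14.1 and 10.8 CPM over the 3-methylfuran series. Fkbp5 medians were 11.8, 20.2 and 48 CPM with furan and 18.1, 15.5 and 17.7 CPM with 3-methylfuran. Vgll4 medians were 10.6, 10.8 and 4.75 CPM with furan and 3.26, 3.26 and 3.9 CPM with 3-methylfuran, so its shift appeared at the mid dose.

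Large differences that were not called were also counted. Of 142 genes with at least a 2-fold difference, 76 were called and 66 were not. Among the 66, 10 had a wide control group (15.2%), and among the 76 called, 9 did (11.8%). The 2 control groups lay at least 2-fold apart in 39.4% of the 66 uncalled genes and 13.2% of the 76 called, against 2.35% of all genes. The dosed groups lay at least 2-fold apart in 43.9% of the uncalled genes and 57.9% of the called, against 2.88% of all genes. A difference is the gap between dosed groups less that between controls, so genes picked by its size favour gaps in either. Cish, a feedback inhibitor of cytokine signalling chosen here after its values were seen, had the largest estimate in size of the 66, at -3.83 ± 1.13 (edgeR adjusted p = 0.0667). It averaged 13.9 CPM in furan 0.12 livers against 32.1 CPM in furan controls, and 16.1 CPM in 3-methylfuran 0.075 livers against 2.63 CPM in 3-methylfuran controls, and ranged from 0.566 to 40.8 CPM among the 3-methylfuran 0.075 rats alone.

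The authors' deposited tables give each dose against its own controls, without a test of the difference. The authors' deposited table for furan 0.12 lists 369 of 19424 genes with an adjusted p under 0.05, 190 higher and 179 lower. The authors' deposited table for 3-methylfuran 0.075 lists 268 of 18604, 89 higher and 179 lower. For Usp2 the authors' deposited tables give folds of 1.79 with furan and 0.28 with 3-methylfuran, and for Il6r 1.99 and 0.6. For Zbtb16 the authors' deposited tables give 6.06 with furan and 0.982 with 3-methylfuran, the second with an adjusted p of 0.00178, where the edgeR estimate for 3-methylfuran was -2.24 on the log2 scale.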

How the data were processed

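Liver mRNA of male rats was sequenced in 2 runs per rat (furan) or 3 (3-methylfuran). The deposited tables hold a whole-number read count per gene and run, made by the authors without normalization. The build listed in the submitters' processing notes is Rnor 6.0, and the tools are DESeq2 1.26.0, featureCounts 2.0.0 and STAR 2.7.1a. Which annotation release and strand setting were used, and how multimapping reads were treated, is not given in the sources used here. In the authors' deposited comparison tables there are adjusted p-values, a plain ratio or fold for 3-methylfuran and a signed fold for furan in which a decrease is a negative reciprocal. Array data were not analysed here.

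Runs of a rat were summed. Runs of a rat differed with a chi-square of 1 to 1.06 per degree of freedom and rats of a group with at least 6.15, for genes of 20 or more counts. The fit used edgeR 4.0.16 (R 4.3.3). Genes had to pass filterByExpr (minimum count 10) in both experiments, libraries were scaled by TMM, and 1 coefficient per group was fitted over the 32 rats with the robust quasi-likelihood F test. Benjamini-Hochberg adjustment ran over all 11352 genes tested, and genes under 0.05 are called. The 70 rats were not used together in the reported fit because rats at the highest doses differ widely among themselves. The control-free contrast came from a fit of 48 rats on the same genes. CPM standard deviations of log2 values used a prior count of 2. The test was checked on simulated counts. Interval and test precision covers the spread between rats.

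Named genes were Cyp2e1, the 10 called genes with the largest difference and the 5 with the smallest p in each direction (proper symbol, mean of at least 1 CPM in a group), 6 genes with both effects called in opposite directions, and up to 4 called members of each list, or the 2 with the highest mean CPM where none was called; some genes that this rule picks are not reported here. Members, lists and tests were chosen with earlier results of these data known. Of 520 list symbols, 398 were tested, in 19 gene lists and 11 marker lists; Sgk1, Dusp1, Tsc22d3, Pck1, Tdo2, Nr1d1, Nr1d2, Cry1, Clock and Cish were named after their values were seen. Alternatives were RLE scaling, TMM within experiments, no filter, all 70 rats, DESeq2 1.42.0, limma 3.58.1 voom with group weights, run 1 alone, thinned counts, a 1.5-fold minimum and each rat left out.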

Additional observations from a re-analysis of the deposited data

Results flagged for a closer look

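The difference between the mid-dose effects was itself tested and passed in 281 genes. Among the named genes with both effects called in opposite directions, the difference was 1.83 for Il6r, 2.32 for Klf13, 0.955 for Srsf4, 2.82 for Lpin1, 1.21 for Sdc4 and 2.85 for Usp2 (log2, edgeR quasi-likelihood test).

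Dixon's test of the gap to the nearest rat was applied to CPM values. Single rats stood apart from the other 7 of their group in 22 of 296 combinations of a named gene and a group (7.43%). The test's nominal rate of 5% is for independent groups of normally distributed values. These combinations share rats and CPM values may be skewed, so 7.43% cannot be judged against that rate. A log scale could flag other rats. In furan 0.12 livers these were Vgll4 at 9.51 CPM (others 3.51 to 5.45), Slc34a2 at 93.2 (27.4 to 50.5), Foxo1 at 64.8 (32.9 to 47.8), Srsf4 at 134 (80.5 to 102), Pcna at 16 (12.4 to 14.1), and the globins Hbb at 233 (94.9 to 129) and Hba-a2 at 79.8 (30.8 to 45), the last 2 in the same rat. In furan controls they were Srsf4 at 103 CPM (54.2 to 77), Igtp at 89 (115 to 134) and Cela1 at 21.1 (10.2 to 15.3), all in furan control MC004, the rat with the lowest sum of sinusoidal endothelium markers.

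In 3-methylfuran 0.075 livers the rats apart were Zbtb16 at 11.2 CPM (1.94 to 4.25), Slc34a2 at 128 (74.2 to 93.6) and Foxo1 at 18.5 (14.7 to 16.5). In 3-methylfuran controls they were Slc34a2 at 147 CPM (35.9 to 80.6), Foxo1 at 26.3 (18 to 21.9), Cdkn1a at 67 (35.4 to 50.1), Cyp2c11 at 1100 (1870 to 2410), Sult1e1 at 2920 (1650 to 2240), Adamtsl2 at 6.75 (8.69 to 10.3), Hbb at 312 (105 to 194), Hba-a2 at 83.9 (29.8 to 51.8) and Cela1 at 29.4 (12.8 to 20.1). Furan control MC004 and 3-methylfuran controls MC502 and MC507 had 3 flags each.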

How the results depend on the processing

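The 281 genes called for the difference became 288 with RLE scaling, 289 with TMM within each experiment, 224 without a filter, 352 with all 70 rats, 398 with DESeq2, 278 with limma voom, 215 with run 1 alone and 259 with counts thinned to 11.1 M. Of the 281, between 193 and 281 were called again under each of these. A 1.5-fold minimum left 181. With 1 rat left out the count ran from 213 to 379. The furan effect ran from 208 (without furan 0.12 rat MB044) to 504 (without furan 0.12 rat MB052), with 213 without furan 0.12 rat MB041, beside 321 with all rats, and 129 genes passed at 1.5-fold or more. The 3-methylfuran effect had 93 genes with all rats, 31 at 1.5-fold or more and 196 with DESeq2. It ran from 40 (without 3-methylfuran control MC507) to 110 (without furan 0.12 rat MB045), and was 48, 50, 52, 54 and 55 without 3-methylfuran 0.075 rat MB549, control MC503, 0.075 rat MB541, control MC508 and 0.075 rat MB551. The control-free contrast called 1 gene with edgeR, RLE scaling or limma voom, 11 with all 70 rats, 24 with DESeq2 and 0 without a filter (edgeR). No named gene changed sign while called under these alternatives. Calls were lost in 5 named genes with all 70 rats, 5 without a filter, 3 with limma voom, 3 with run 1, 1 with thinned counts and 1 with RLE scaling; Irs2 (adjusted p 0.0484 with all rats in edgeR) was the most often lost, and Kdr gained a call without furan control MC004. The cause of these changes was not tested. No paired analysis was possible because rat numbers are not shared between groups. Depth of 11.1 M counts limits genes near 1 CPM, such as Epha4, to about 11 reads per rat.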

Other observations

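Metallothioneins, small metal-binding proteins, stood at different levels in the 2 experiments whatever the diet. Mt1 averaged 121 CPM in furan 0.12 livers against 48.7 CPM in furan controls, and 1.87 CPM in 3-methylfuran 0.075 livers against 2.22 CPM in 3-methylfuran controls. It ranged from 21 to 236 CPM in furan 0.12 livers and from 29.3 to 111 CPM in furan controls. The lowest furan rat thus stood above the highest 3-methylfuran control at 3.17 CPM. Mt1 rose with furan by 1.32 on the log2 scale (edgeR adjusted p = 0.0247), and its difference of 1.56 ± 0.63 did not pass (edgeR adjusted p = 0.229). Mt1m had the same form, with 77.0 CPM in furan 0.12 livers, 24.3 CPM in furan controls and means of 1.33 and 1.09 CPM in 3-methylfuran 0.075 and 3-methylfuran control livers. The kit and the experiment changed together here and cannot be told apart. Both genes were named after their values were seen.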
